A study of Mus musculus with 29 samples.

Results

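The MHC class I and immunoproteasome genes were followed here as 10 genes of the aortic arch: the class I heavy chains H2-K1 and H2-D1, their light chain B2m, the peptide transporter subunits Tap1 and Tap2, tapasin (Tapbp), the inducible proteasome subunits Psmb8, Psmb9 and Psmb10, and the class I transactivator Nlrc5. They were chosen by name. All 10 symbols matched 1 Ensembl id each among the 56748 genes of the counts table, and all 10 were among the 12353 genes with enough counts for testing. RNA was sequenced from 29 mice with 1 library per mouse, and the question was how DNA repair deficiency, age and dietary restriction (DR) bear on the vessel. Ercc1Δ/− mice carry 1 truncated and 1 inactivated allele of Ercc1, whose protein is part of a DNA repair nuclease, and were compared with WT littermates. Both genotypes were F1 hybrids of C57BL6J and FVB, were housed singly and were perfused with PBS after death. The 6 groups were WT and Ercc1Δ/− mice of 6 weeks fed ad libitum (AL), of 22 weeks fed AL, and of 22 weeks on 30% DR. Each held 5 samples, except the AL-fed 22-week groups, with 4 Ercc1Δ/− samples and 4 WT samples used, since WT replicate 003 was left out for its low total of 400410 counts.

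Class I molecules display peptides of about all proteins made inside a cell to CD8 T cells and natural killer cells. The peptides are cut by the proteasome, carried into the endoplasmic reticulum by the TAP transporter, and loaded by tapasin onto a heavy chain paired with B2m. Interferons raise the whole set of genes and replace the constitutive catalytic proteasome subunits Psmb5, Psmb6 and Psmb7 by Psmb8, Psmb9 and Psmb10, which gives the immunoproteasome. NLRC5 has no DNA-binding domain of its own and acts through factors such as RFX5 bound to a conserved module of class I promoters. In the arterial wall class I molecules are found on endothelial cells, leukocytes and, at lower levels, on smooth muscle cells and fibroblasts.

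In the GRCm39 annotation 7 of the 10 genes lie on chromosome 17, most of them in the MHC region: Tapbp at chr17:34134873-34148267, H2-K1 at chr17:34214987-34219321, Psmb9 at chr17:34400960-34406738, Tap1 at chr17:34405996-34416199, Psmb8 at chr17:34416690-34420428, Tap2 at chr17:34422501-34435829 and H2-D1 at chr17:35481691-35486475. B2m lies at chr2:121977957-121983594, Nlrc5 at chr8:95160984-95253900 and Psmb10 at chr8:106662362-106665077. Psmb9 and Tap1 overlap on opposite strands, and the strand setting of the counting is not given in the sources used here, so their counts may hold some reads of each other. Class I heavy chain genes resemble each other closely, and the FVB parent carries another MHC haplotype than the reference strain. Reads that align to several places were not counted, so the heavy chain counts are uncertain in level. The parental strains were the same for every group, and the part of the alignment in any difference was not tested.

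The stretch before the transcription start shows how alike the heavy chain genes are, and why Psmb9 and Tap1 are described together. A RefSeq table of GRCm38.p6, an older build than that of the counts, held 8 of the 10 members (all but Tap2 and Nlrc5). The 250 bases before the start are printed for H2-K1 (minus strand, chr17:34000348-34000597), H2-D1 (plus strand, chr17:35262844-35263093) and B2m (plus strand, chr2:122147437-122147686). For Psmb9 and Tap1, which start head to head, the 225 bases between the starts are printed on the plus strand (chr17:34187331-34187555). Capitals mark matches, on either strand, to an interferon-stimulated response element (ISRE, GAAANNGAAA), a gamma-activated site (GAS, TTCNNNGAA), a kappaB site (GGGNNNNNCC) or a Y box (CCAAT). Adjacent capitals can be overlapping matches.
H2-K1: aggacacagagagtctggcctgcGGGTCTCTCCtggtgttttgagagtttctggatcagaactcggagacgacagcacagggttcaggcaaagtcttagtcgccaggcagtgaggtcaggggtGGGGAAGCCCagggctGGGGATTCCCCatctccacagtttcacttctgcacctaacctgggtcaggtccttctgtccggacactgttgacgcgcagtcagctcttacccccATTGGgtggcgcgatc
H2-D1: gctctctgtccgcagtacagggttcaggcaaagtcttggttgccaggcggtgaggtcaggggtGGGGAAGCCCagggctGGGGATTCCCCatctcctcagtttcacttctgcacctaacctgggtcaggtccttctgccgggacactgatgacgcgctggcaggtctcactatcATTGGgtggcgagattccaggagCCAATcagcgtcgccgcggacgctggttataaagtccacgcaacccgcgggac
B2m: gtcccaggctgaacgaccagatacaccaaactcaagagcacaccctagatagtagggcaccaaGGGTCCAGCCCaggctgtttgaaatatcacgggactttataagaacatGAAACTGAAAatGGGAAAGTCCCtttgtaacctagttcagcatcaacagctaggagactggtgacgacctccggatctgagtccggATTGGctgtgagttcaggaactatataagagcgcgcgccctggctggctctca
Psmb9 to Tap1: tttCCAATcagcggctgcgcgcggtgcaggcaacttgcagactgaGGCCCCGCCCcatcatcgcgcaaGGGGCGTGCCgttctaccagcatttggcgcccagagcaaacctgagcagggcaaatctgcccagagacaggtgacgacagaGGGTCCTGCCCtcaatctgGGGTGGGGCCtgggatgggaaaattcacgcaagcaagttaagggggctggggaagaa

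Aligned at an offset of 60 bases, the H2-K1 and H2-D1 stretches shared 166 of 190 bases (87.4%), with a longest identical run of 47 bases that holds kappaB matches of both genes. At that offset the Y box match of H2-K1, 12 to 16 bases before its start, falls on that of H2-D1 at 72 to 76 bases. Both read ATTGG. H2-D1 held another match, CCAAT, at 49 to 53 bases. The match of B2m lay at the same distance from its start but in the other orientation, ATTGG. Of the 8 members, 6 held a Y box match, as did 33.8% of the 32851 starts in the table, and 5 held a kappaB match, as did 45.8% of the starts. Psmb9 and Tap1 share their matches, which are counted for both, and the H2-K1 and H2-D1 stretches are alike. The members are therefore not independent stretches, and the shares are not a test. An ISRE match was found before B2m alone (2.98% of all starts) and a GAS match before Psmb8 alone (7.02% of all starts). These are letter matches in a short window and say nothing about binding. An element that departs from the letters is missed, so the lack of a match does not show that it is absent.

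The 28 samples held 921167 to 9616382 counts on genes, and at 22 weeks on AL every Ercc1Δ/− sample (1294980 to 3855444) lay below every WT sample (3903589 to 9616382). The same held on DR, with 921167 to 2572523 in Ercc1Δ/− and 2660422 to 6124471 in WT mice. Depth thus went with genotype in both comparisons of 22 weeks. Levels are given as normalised read counts, that is counts scaled by TMM to a library of 3683502 counts. Ercc1, the gene altered in the model, was lower in Ercc1Δ/− mice in all comparisons of genotype (log2 fold change -0.96 at 22 weeks and -1.42 at 6 weeks on AL, and -1.01 on DR). The sum of 8 smooth muscle markers, which mark the main cell of the labelled tissue, was 65780 to 166400 normalised counts over the samples. WT replicate 018 of the AL-fed 22-week group stood apart among the members. It was the only female used in that group, and had the highest Nlrc5 (42.4 normalised counts) and Psmb9 (59.9) of all 28 samples. The results that rest on it are given with and without it. The left-out replicate 003, the other female of that group, had 29.9 normalised counts of Nlrc5, 49.9 of Psmb9 and 150 of Tap1, from 3, 5 and 15 raw counts.

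Per length of exon the class I chains stood highest and Nlrc5 lowest. In AL-fed WT mice of 22 weeks, mean normalised counts per kb of exon were 955 for H2-D1, 470 for B2m and 325 for H2-K1, against 131 for Tapbp. Tap2 had 46.3, Psmb10 33.9, Psmb8 17.2 and Tap1 13.1 per kb on the same scale. Psmb9 had 7.49 and Nlrc5 2.30, the lowest of the members. Raw counts of Nlrc5 were 2 to 92 per sample and those of Psmb9 2 to 130, so both carry a large counting error. Nlrc5 exceeded 10 counts in 11 of the 28 samples, just enough to be tested, and 4 of the 11 were the deep AL-fed WT samples of 22 weeks. Over the other groups it exceeded 10 counts in 7 samples, too few for the filter, so it was admitted through the group in which its mean was highest.

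**Figure D1:**
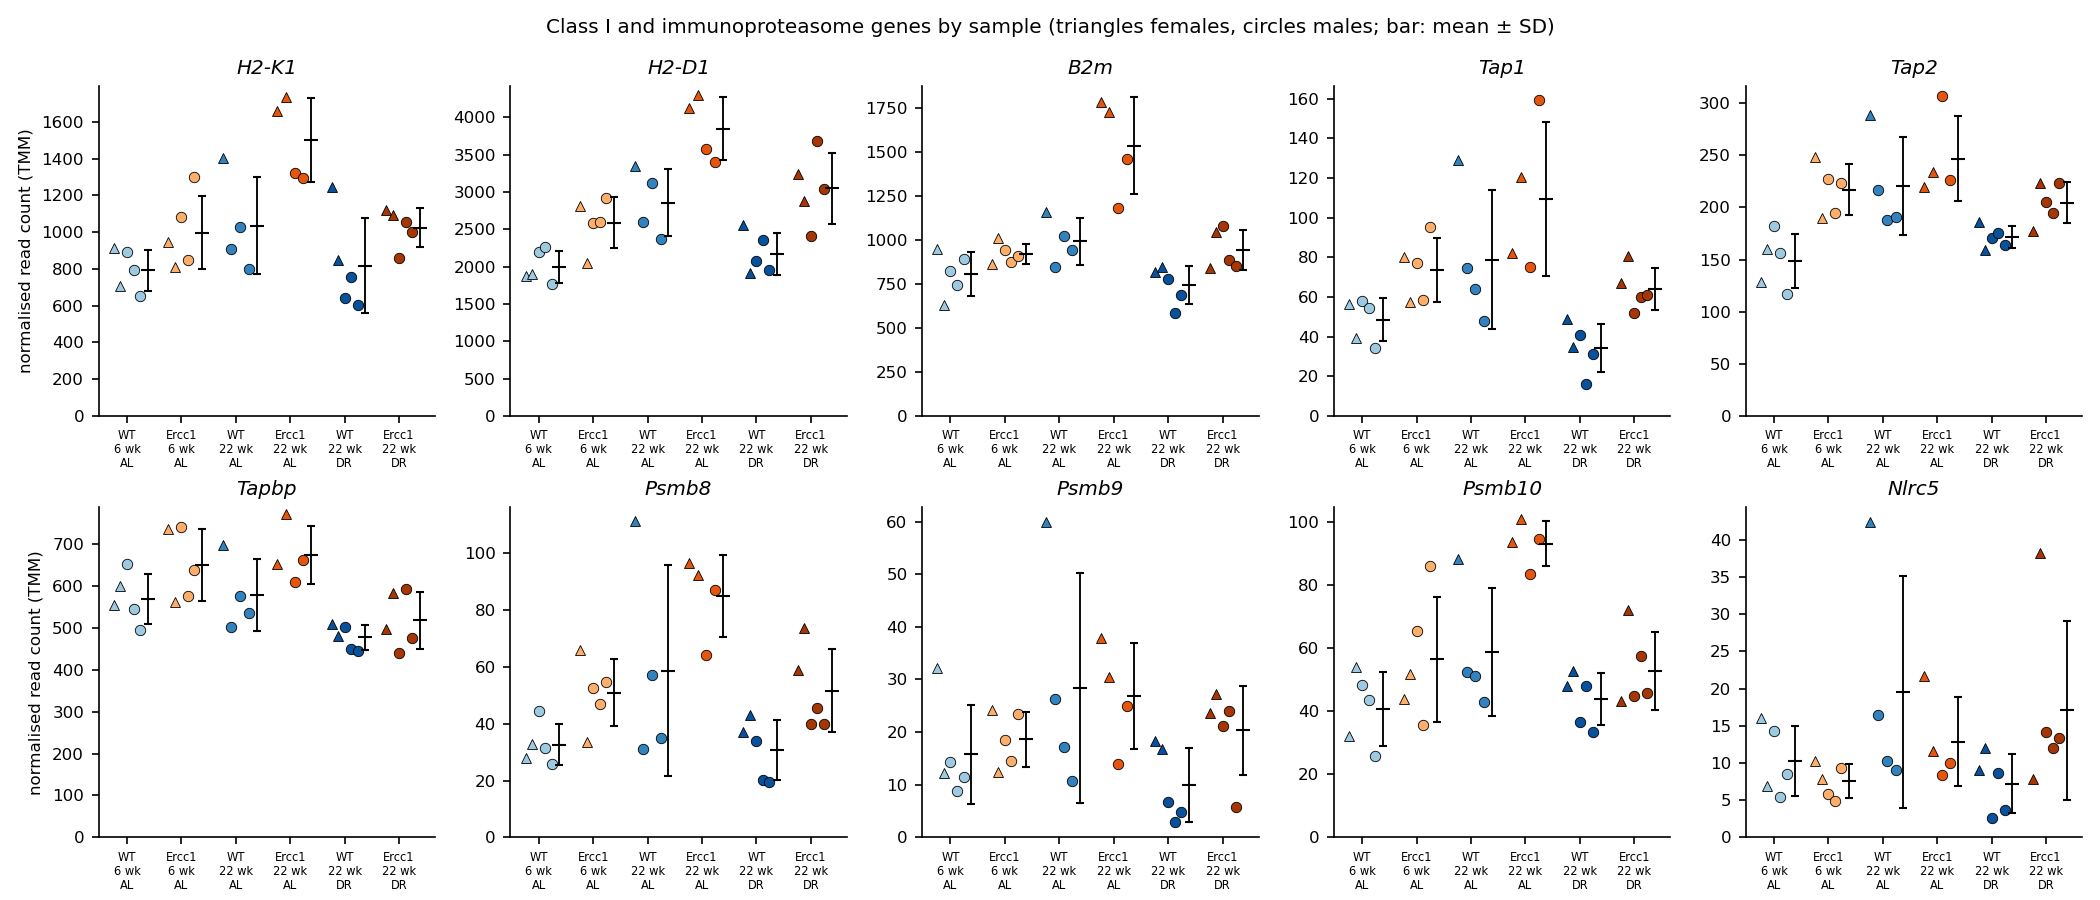
Normalised read counts (TMM, vertical axes from 0) of the 10 genes in each of the 28 samples by group, with females as triangles, males as circles and bars for mean ± SD (n = 4 or 5). AL-fed Ercc1Δ/− mice of 22 weeks had the highest group mean for 8 genes, while for Psmb9 and Nlrc5 the highest mean was that of AL-fed WT mice of 22 weeks, where female replicate 018 stood highest.

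A gene was called when edgeR's adjusted p over all tested genes was at most 0.05 and the change at least 1.2-fold. Fold changes come from a model with group and sex. In AL-fed mice of 22 weeks 2 of the 10 members were higher in Ercc1Δ/− than in WT mice, beside 5.96% of all tested genes called higher. At 6 weeks edgeR called 0 members (1.72% of all genes in either direction), 4 had an unadjusted p under 0.05 and DESeq2 called 1, Tap2. Between 6 and 22 weeks 3 members rose in Ercc1Δ/− mice (2.22% of all genes called higher), while edgeR called 0 in WT mice (0.219% of all genes in either direction), where 8 had an unadjusted p under 0.05 and DESeq2 called 1, H2-D1. DR lowered 2 members in Ercc1Δ/− mice (1.14% of all genes called lower) and 5 in WT mice (0.915% called lower), among them Nlrc5, which would not have been tested without the counts of the AL-fed WT samples. On DR 5 members were higher in Ercc1Δ/− than in WT mice (5.91% of all genes called higher). Endothelial markers lay above 0 in the same comparison in 8 of 8 genes (median log2 fold change 0.61, 4 called higher), with sums of 3212 to 5386 normalised counts in Ercc1Δ/− and 1633 to 3430 in WT mice, and smooth muscle markers were lower in 8 of 8 (8 called). Sums of pan-leukocyte markers on DR were 209 to 1634 normalised counts in Ercc1Δ/− and 62.05 to 133 in WT mice. Those of macrophage markers were 2284 to 5546 and 1426 to 1998. The part of all these cells in the members' calls was not tested. The AL-fed 22-week samples enter the comparisons of genotype, age and diet alike, so these counts are not independent of each other.

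Most members had the same sign within a comparison, whether called or not. Fold changes were above 0 in 8 of 10 members for genotype at 22 weeks on AL (median log2 fold change 0.42) and in 9 of 10 at 6 weeks (median 0.35). For age they were above 0 in 10 of 10 in Ercc1Δ/− mice (median 0.57) and in 10 of 10 in WT mice (median 0.52). For DR they were below 0 in 9 of 10 in Ercc1Δ/− mice (median -0.42) and in 10 of 10 in WT mice (median -0.48), and for genotype on DR they were above 0 in 10 of 10 (median 0.43). The median over all tested genes lay between -0.01 and 0.03 in each of these comparisons. Without replicate 018 the values for age in WT mice were 0.39 for Nlrc5 in place of 1.18, 0.46 for Psmb9 in place of 1.16, and -0.07 for Tapbp in place of 0.03.

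**Figure D2:**
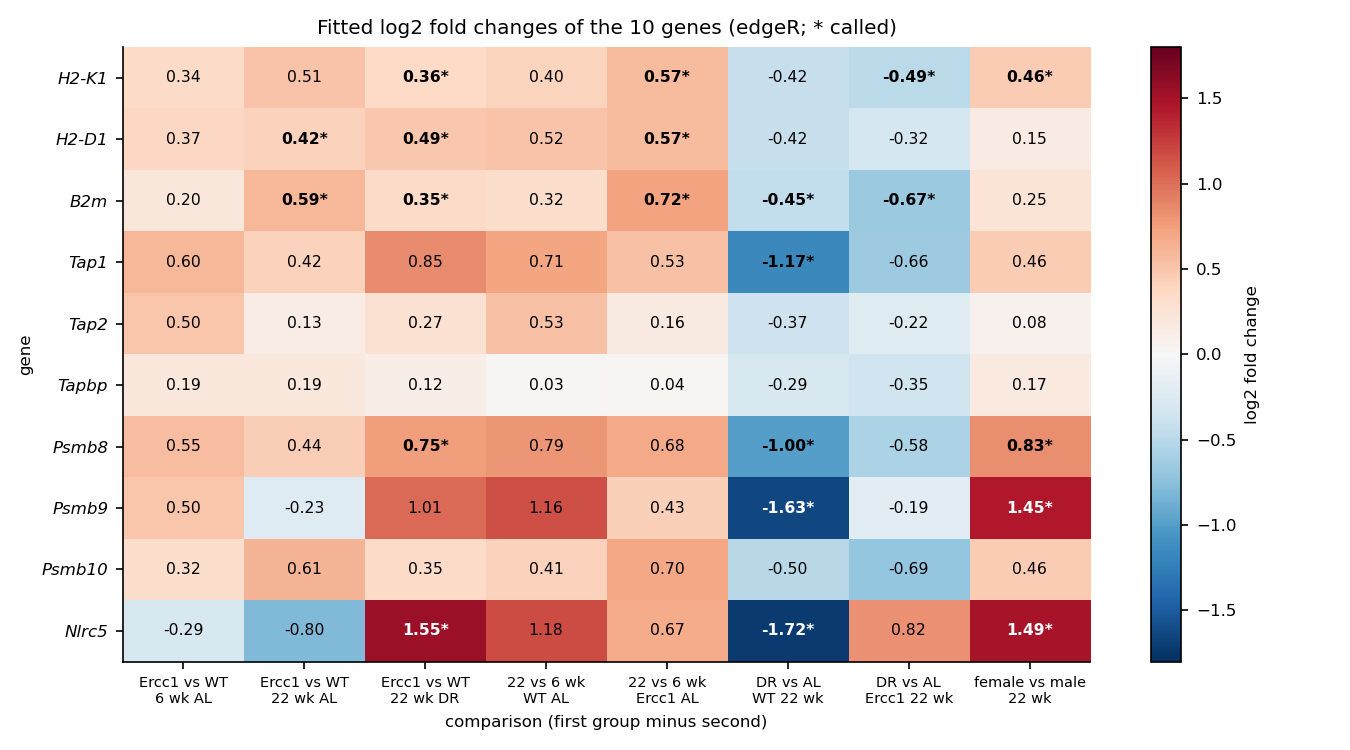
Fitted log2 fold changes (edgeR, group and sex in the model) of the 10 genes in 8 comparisons, first group minus second, with red for higher, blue for lower and an asterisk for called genes. The genotype and age columns are mostly red and both diet columns mostly blue, with Nlrc5 and Psmb9 the genes whose sign differs from the rest in the AL comparison of genotype at 22 weeks.

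Without WT replicate 018 the count of members that were higher in AL-fed Ercc1Δ/− mice of 22 weeks was 6 in place of 2, although the number of all genes called fell to 927 from 1488. The AL-fed WT group of 22 weeks then held males only, so its comparisons lean on the sex difference in the other groups. The count for DR in WT mice was then 0 in place of 5, with 39 of all genes called in place of 154. For age in Ercc1Δ/− mice it was 5 in place of 3, for DR in Ercc1Δ/− mice 4 in place of 2 and for genotype on DR 6 in place of 5. In a model without sex DR lowered 0 members in WT mice and 1 in Ercc1Δ/− mice, and genotype on DR called 1. With the shallow replicate 003 added, the counts were 1 for genotype on AL, 1 for DR in Ercc1Δ/− mice and 3 for genotype on DR. Numbers of all genes called also moved when samples or terms changed, as given in part in the last section. Where no such number stands beside a count of members here, the share of all genes in that fit is not given. Such shifts can therefore not be read as particular to the members.

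**Figure D3:**
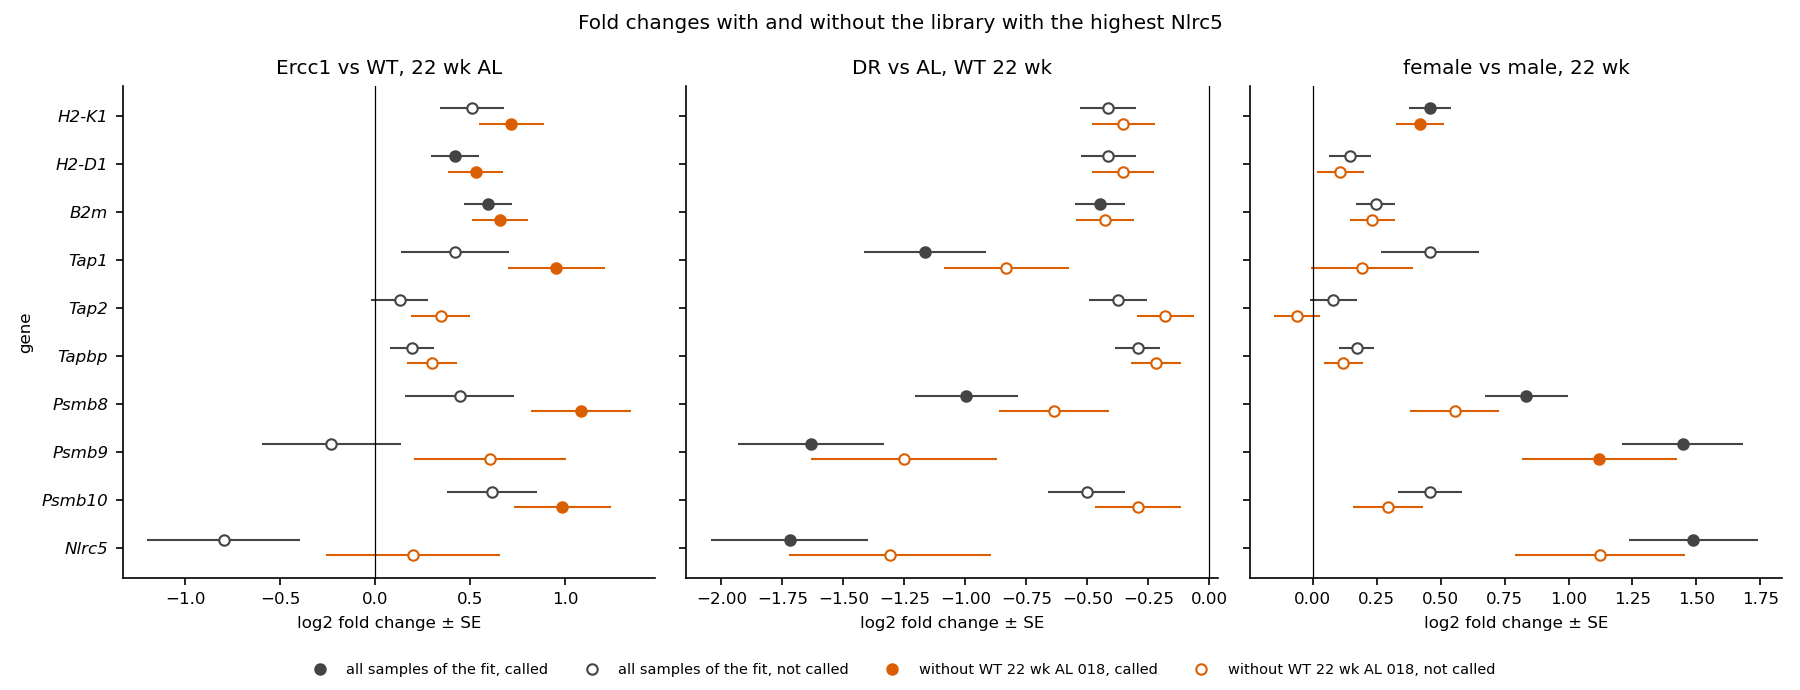
Log2 fold changes ± SE of the 10 genes in 3 comparisons from all samples of the fit (grey) and without WT replicate 018 of the AL-fed 22-week group (orange), with filled points for called genes. Without the sample, H2-K1, Tap1, Psmb8 and Psmb10 were called between genotypes beside H2-D1 and B2m, no gene was called for DR in WT mice, and H2-K1 and Psmb9 were called for sex. The AL-fed 22-week WT group then held males only.

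B2m, the light chain shared by all classical class I molecules, was called in 5 of these comparisons, more than any other member. At 22 weeks on AL the Ercc1Δ/− samples had 1725, 1178, 1780 and 1456 normalised counts and the WT samples 843, 1156, 943 and 1019. Every Ercc1Δ/− sample lay above every WT sample (log2 fold change 0.59, SE 0.13, adjusted p = 0.00323). With replicate 003 added, which had 1925 normalised counts of B2m from 193 raw counts, the value was 0.40 and not called (adjusted p = 0.130). At 6 weeks the Ercc1Δ/− samples had 940, 864, 875, 1008 and 911 and the WT samples 631, 821, 891, 948 and 744, with overlapping ranges and a log2 fold change of 0.20 (SE 0.11, adjusted p = 0.507).

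B2m rose with age in AL-fed Ercc1Δ/− mice (log2 fold change 0.72, SE 0.12, adjusted p = 0.000527), with no overlap between the ages. In WT mice the difference with age was 0.32 (SE 0.12, adjusted p = 0.388). The genotype by age interaction was 0.40 (SE 0.17) and was not called (adjusted p = 0.369), so a larger change in Ercc1Δ/− mice was not shown. On DR the Ercc1Δ/− samples had 1080, 842, 850, 883 and 1043 normalised counts, all below the AL-fed Ercc1Δ/− samples, and the log2 fold change was -0.67 (SE 0.11, adjusted p = 0.00125). In WT mice on DR the values were 779, 820, 585, 689 and 848, which overlapped the AL-fed samples at 848 against 843, with a log2 fold change of -0.45 (SE 0.10, adjusted p = 0.0265). Without WT replicate 018 the latter was -0.43 and was not called (adjusted p = 0.133).

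H2-D1, the more abundant heavy chain, was called by edgeR in the same comparisons of AL-fed mice as B2m. Within groups, Pearson's r of H2-D1 with B2m was -0.05. At 22 weeks the Ercc1Δ/− samples had 4291, 3574, 4116 and 3404 normalised counts and the WT samples 2599, 3350, 2365 and 3114, so that the lowest Ercc1Δ/− sample lay just above the highest WT sample. The log2 fold change was 0.42 (SE 0.13, adjusted p = 0.0345). At 6 weeks the means were 2589 ± 337 (SD, n = 5) in Ercc1Δ/− and 2000 ± 215 (SD, n = 5) in WT mice, and the log2 fold change of 0.37 (SE 0.11) was not called (adjusted p = 0.111).

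Between 6 and 22 weeks H2-D1 rose in Ercc1Δ/− mice (log2 fold change 0.57, SE 0.12, adjusted p = 0.00618). In WT mice the difference was 0.52 (SE 0.12, adjusted p = 0.0721), and the ages did not overlap in either genotype. On DR the Ercc1Δ/− samples had 2403, 3235, 3033, 3680 and 2875 and the WT samples 2074, 2552, 2359, 1949 and 1907, where 4 of the 5 Ercc1Δ/− samples lay above all WT samples (log2 fold change 0.49, SE 0.11, adjusted p = 0.00285). H2-D1 was called for genotype on DR in every alternative fit that was run, with the model without sex among them. DR against AL gave -0.32 in Ercc1Δ/− mice (adjusted p = 0.161) and -0.42 in WT mice (adjusted p = 0.0739), both short of a call.

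H2-K1, the other heavy chain, had 1737, 1320, 1661 and 1296 normalised counts in AL-fed Ercc1Δ/− mice of 22 weeks and 911, 1405, 798 and 1027 in WT mice. The ranges overlapped through WT replicate 018 with 1405, and the log2 fold change of 0.51 (SE 0.17) fell short of a call (adjusted p = 0.0532). Without that sample it was 0.72 (SE 0.17, adjusted p = 0.0128). On DR the Ercc1Δ/− samples had 859, 1122, 998, 1056 and 1092, all below those on AL, and the log2 fold change was -0.49 (SE 0.12, adjusted p = 0.0298). That call was kept in 16 of 27 alternatives.

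Age raised H2-K1 in Ercc1Δ/− mice (log2 fold change 0.57, SE 0.16, adjusted p = 0.0463), a call that was kept in 10 of 27 alternatives and in 4 of the 18 fits that left out 1 sample, while the fold change stayed at 0.46 to 0.68 in the latter. In WT mice on DR it had 640, 1245, 756, 602 and 848 normalised counts, where the female replicate 017 stood highest, and DR against AL gave -0.42 (SE 0.11, adjusted p = 0.0742). Genotype on DR gave 0.36 (SE 0.11, adjusted p = 0.0305), while the ranges overlapped, and was called in 18 of 27 alternatives.

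Of 22 other class I heavy chain genes, 11 had enough counts for testing. At 22 weeks on AL 4 of these were higher in Ercc1Δ/− mice, and the 11 had a median of 0.54 (log2 fold change). They were H2-T10 (0.86, adjusted p = 0.0104), Hfe (0.66, adjusted p = 0.0176), H2-T22 (0.58, adjusted p = 0.0206) and H2-T23 (0.69, adjusted p = 0.0362). H2-T23 encodes the Qa-1 molecule that is read by natural killer cells, and Hfe a class I-like regulator of iron uptake. DR called 0 of the 11 in Ercc1Δ/− mice, where 3 had an unadjusted p under 0.05, and lowered 2 in WT mice, H2-Q4 (-1.13, adjusted p = 0.0020) and H2-T23 (-0.64, adjusted p = 0.0115). On DR 5 of the 11 were higher in Ercc1Δ/− mice, among them H2-T23 (1.03, adjusted p = 7.92e-06) and H2-Q4 (0.81, adjusted p = 0.00538). The H2 genes among them share sequence with H2-K1 and H2-D1, and the counts of these H2 genes are uncertain for the same reason.

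Among the peptide-loading members, Tap1 varied the most between samples. At 22 weeks on AL it had 121, 75.3, 82.1 and 159 normalised counts in Ercc1Δ/− mice and 74.7, 129, 47.9 and 64.1 in WT mice, with overlapping ranges. The log2 fold change was 0.42 (SE 0.28, adjusted p = 0.378), and 0.95 without WT replicate 018 (SE 0.26, adjusted p = 0.0238). On DR every Ercc1Δ/− sample (51.8, 66.9, 61.0, 60.0 and 80.5) lay above every WT sample (40.8, 48.8, 16.0, 31.0 and 34.8), and the log2 fold change of 0.85 (SE 0.29) fell just short of a call (adjusted p = 0.0565).

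In WT mice Tap1 was lower on DR than on AL (log2 fold change -1.17, SE 0.25, adjusted p = 0.0242). Without replicate 018 the value was -0.83 (SE 0.26, adjusted p = 0.205). In Ercc1Δ/− mice DR gave -0.66 (SE 0.29, adjusted p = 0.278).

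Tap2, the partner of Tap1 in the transporter, was called in none of the comparisons by edgeR. At 6 weeks its Ercc1Δ/− samples had 227, 249, 194, 190 and 224 normalised counts and its WT samples 160, 182, 117, 129 and 156. Every Ercc1Δ/− sample lay above every WT sample (log2 fold change 0.50, SE 0.14, adjusted p = 0.0736). At 22 weeks on AL the means were 247 ± 40.6 (SD, n = 4) and 221 ± 46.9 (SD, n = 4) and the log2 fold change was 0.13 (SE 0.15, adjusted p = 0.639). In WT mice Tap2 did not overlap between ages (log2 fold change 0.53, adjusted p = 0.141) or between diets (log2 fold change -0.37, adjusted p = 0.144).

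Tapbp, which bridges the heavy chain and TAP during loading, was called for neither genotype nor age, with log2 fold changes of 0.03 to 0.19. On DR the Ercc1Δ/− samples had 440, 496, 476, 593 and 584 normalised counts, all below the AL-fed samples at 770, 608, 651 and 662, and the log2 fold change of -0.35 (SE 0.10) was just short of a call (adjusted p = 0.0597). Among 19 other genes of peptide loading and processing in the endoplasmic reticulum, edgeR called 0 between genotypes at 22 weeks on AL (4 with an unadjusted p under 0.05). Sec22b, a vesicle fusion protein, was lower on DR in Ercc1Δ/− mice (log2 fold change -0.46, adjusted p = 0.0147) and calreticulin (Calr), the chaperone of the loading complex, was lower on DR in WT mice (-0.39, adjusted p = 0.0242).

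Psmb8, which carries the chymotrypsin-like activity, had 92.5, 64.2, 96.5 and 87.1 normalised counts in AL-fed Ercc1Δ/− mice of 22 weeks and 31.1, 112, 34.9 and 57.3 in WT mice. The 3 WT males lay below all Ercc1Δ/− samples and the WT female above them. The log2 fold change was 0.44 (SE 0.29, adjusted p = 0.349), and without that female 1.08 (SE 0.26, adjusted p = 0.0129).

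On DR Psmb8 had 40.0, 59.0, 40.0, 45.6 and 73.6 normalised counts in Ercc1Δ/− mice and 34.1, 37.1, 20.3, 19.5 and 43.2 in WT mice. Between genotypes this gave a log2 fold change of 0.75 (SE 0.25, adjusted p = 0.0432) with overlapping ranges, and the call was kept in 14 of 27 alternatives. For DR against AL it was -0.997 in WT mice (SE 0.21, adjusted p = 0.0157) and -0.64 without replicate 018 (adjusted p = 0.308). In Ercc1Δ/− mice DR gave -0.58 (SE 0.25, adjusted p = 0.253).

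Psmb10, the subunit with trypsin-like activity, separated the diets in Ercc1Δ/− mice. On AL the samples had 101, 83.7, 93.8 and 94.6 normalised counts and on DR 44.7, 43.3, 45.7, 57.6 and 72.3, with no overlap. The log2 fold change was -0.69 (SE 0.19), just short of a call in edgeR (adjusted p = 0.0586), and DESeq2 called it (adjusted p = 0.0432). Between genotypes at 22 weeks on AL it was 0.61 (SE 0.24, adjusted p = 0.0953), and 0.98 without WT replicate 018 (SE 0.25, adjusted p = 0.0187).

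Psmb9, which carries the caspase-like position, had 30.5, 14.0, 37.9 and 24.9 normalised counts in AL-fed Ercc1Δ/− mice of 22 weeks and 26.2, 59.9, 10.6 and 17.1 in WT mice. Between genotypes this gave a log2 fold change of -0.23 (SE 0.36, adjusted p = 0.736), and 0.60 without replicate 018 (SE 0.40, adjusted p = 0.404), so its sign rested on 1 sample. In WT mice on DR it had 6.68, 18.2, 2.90, 4.87 and 16.8, from 2 to 28 raw counts, and DR against AL gave -1.63 (SE 0.30, adjusted p = 0.00464). Without replicate 018 this was -1.25 and not called (adjusted p = 0.195).

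The constitutive subunits Psmb5, Psmb6 and Psmb7 were called in none of these comparisons by edgeR. Their log2 fold changes between genotypes at 22 weeks on AL were 0.37, -0.02 and 0.17, with 0 of 3 at an unadjusted p under 0.05. The ratio of each inducible subunit to its counterpart does not depend on scaling between libraries. Psmb8/Psmb5 had a geometric mean of 1.17 in AL-fed Ercc1Δ/− mice of 22 weeks (range 1.095 to 1.305) and 0.878 in WT mice (range 0.511 to 2.14). Psmb10/Psmb7 had 0.303 (0.270 to 0.336) and 0.205 (0.145 to 0.311), and Psmb9/Psmb6 had 0.0837 (0.0455 to 0.122) and 0.0763 (0.0336 to 0.189).

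Over 21 comparisons of the 3 ratios none passed the threshold after adjustment (two-sided exact permutation tests, lowest adjusted p = 0.164), and 5 had an unadjusted p under 0.05. The largest of these was the decrease of Psmb10/Psmb7 on DR in Ercc1Δ/− mice, from 0.303 to 0.155 (log2 difference -0.97, SE 0.23, exact p = 0.0238), with every DR sample below every AL sample. With age, Psmb10/Psmb7 differed by 0.69 in Ercc1Δ/− mice (exact p = 0.0318) and 0.74 in WT mice (exact p = 0.0397) and Psmb8/Psmb5 by 0.55 in Ercc1Δ/− mice (exact p = 0.0318) on the log2 scale. For DR in WT mice Psmb10/Psmb7 differed by -0.61 (exact p = 0.0397). None of the 7 comparisons of Psmb9/Psmb6 reached an unadjusted p under 0.05 (lowest exact p = 0.0635).

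**Figure D4:**
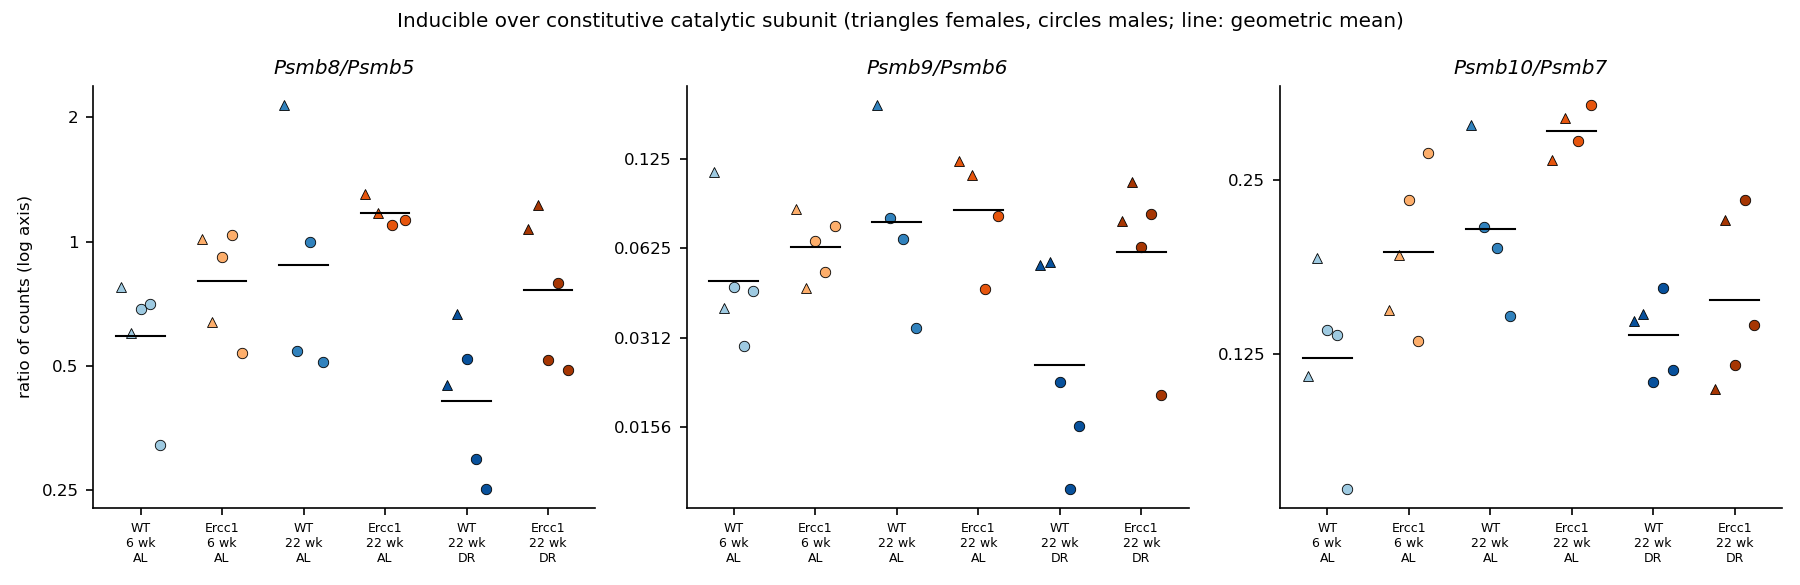
Ratio of the counts of each inducible catalytic proteasome subunit to its constitutive counterpart in each sample (log axes), with females as triangles, males as circles and lines for the geometric means. AL-fed Ercc1Δ/− mice of 22 weeks lay within a narrow band for Psmb8/Psmb5 (1.095 to 1.305) and Psmb10/Psmb7 (0.270 to 0.336), and WT mice on DR were lowest for Psmb8/Psmb5 and Psmb9/Psmb6.

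The rest of the proteasome moved little. Of 11 other subunits of its 20S core, edgeR called 0 in AL-fed mice of 22 weeks, with 3 at an unadjusted p under 0.05 and a median log2 fold change of 0.16. Of 18 subunits of its 19S cap, 18 were above 0 and 2 were called higher, Psmd8 (0.42, adjusted p = 0.0171) and Psmd13 (0.32, adjusted p = 0.0252). The interferon-inducible activator subunits Psme1 and Psme2, which open the core for short peptides, had log2 fold changes of 0.26 (adjusted p = 0.259) and 0.34 (adjusted p = 0.0973).

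For Nlrc5 the group means were ordered differently from those of H2-K1, H2-D1 and B2m, with AL-fed WT mice of 22 weeks highest. In WT mice of 22 weeks it had 16.5, 42.4, 9.12 and 10.3 normalised counts on AL and 2.67, 9.11, 8.71, 3.65 and 12.0 on DR. In Ercc1Δ/− mice it had 11.6, 8.37, 21.6 and 9.95 on AL and 14.1, 7.87, 13.3, 12.0 and 38.2 on DR. A single female sample in each case stood far above the rest of its group, replicate 018 among the AL-fed WT mice and replicate 022 among the Ercc1Δ/− mice on DR.

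Nlrc5 was called lower on DR in WT mice (log2 fold change -1.72, SE 0.32, adjusted p = 0.00580), and without replicate 018 the value was -1.31 and not called (adjusted p = 0.227). As it passed the filter through the AL-fed WT samples, this value is a description. With no filter it was -1.75 and was called. In Ercc1Δ/− mice DR gave 0.82 in the other direction (SE 0.40, adjusted p = 0.335). The difference of these responses, the genotype by diet interaction, was 2.54 (SE 0.52) and just missed the threshold in edgeR (adjusted p = 0.0503), while DESeq2 called it (adjusted p = 0.0496). The interaction uses the same AL-fed WT samples through which Nlrc5 passed the filter, so it too is a description. Without replicate 018 the interaction was 2.04 (adjusted p = 0.345). On DR Nlrc5 was higher in Ercc1Δ/− mice (log2 fold change 1.55, SE 0.39, adjusted p = 0.00890), and without replicate 022 the value was 1.30 and not called (adjusted p = 0.1001). For both interactions edgeR called 0 of the 10 members: for genotype by age 1 had an unadjusted p under 0.05, DESeq2 called 0 and 0.785% of all genes were called, and for genotype by diet 2 had an unadjusted p under 0.05, DESeq2 called 1 and 0.0890% of all genes were called.

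Since the samples that stood highest were females, the sex term of both fits was read as well, after the values by sample had been seen. At 22 weeks 4 members were higher in females, beside 0.696% of all tested genes called higher: Psmb9 (log2 fold change 1.45, SE 0.24, adjusted p = 0.00143), Nlrc5 (1.49, SE 0.25, adjusted p = 0.00205), H2-K1 (0.46, SE 0.08, adjusted p = 0.00472) and Psmb8 (0.83, SE 0.16, adjusted p = 0.00867). All 10 members were above 0 and 8 had an unadjusted p under 0.05. Nlrc5 passed the filter through the AL-fed WT group that holds replicate 018, so its value for sex is a description. In each of the 4 groups of 22 weeks every female lay above every male for H2-K1 and for Psmb8. These groups held 1 or 2 females, and the share of all genes that separate the sexes this way is not given. At 6 weeks the sexes overlapped for both genes. The ratio of female to male means was then 1.04 in WT and 0.817 in Ercc1Δ/− mice for H2-K1. For Psmb8 it was 0.899 and 0.970. At 22 weeks the female and male means of H2-K1 were 1699 and 1308 in AL-fed Ercc1Δ/− mice and 1046 and 666 in WT mice on DR. They were 1107 and 971 in Ercc1Δ/− mice on DR, and the AL-fed WT female had 1405 against a male mean of 912.

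For Psmb9 the female and male means were 34.2 and 19.4 in AL-fed Ercc1Δ/− mice, 17.5 and 4.82 in WT mice on DR and 25.4 and 17.0 in Ercc1Δ/− mice on DR. For Nlrc5 they were 16.6 and 9.16, 10.6 and 5.01, and 23.0 and 13.2 in the same order. Without replicate 018, H2-K1 (0.42, adjusted p = 0.0146) and Psmb9 (1.12, adjusted p = 0.0414) kept their calls, while Nlrc5 (1.12, adjusted p = 0.0639) and Psmb8 (0.56, adjusted p = 0.0803) lost theirs. In the fit of the AL-fed mice of both ages edgeR called 0 of the 10 members for sex, beside 0.146% of all genes, with 10 of 10 above 0, 3 at an unadjusted p under 0.05 (Psmb9 0.89, Nlrc5 0.99 and Psmb8 0.44) and 0 called by DESeq2. There too replicate 018 carried weight: without it Psmb9 had 0.33, Nlrc5 0.24 and Psmb8 0.04, and Tap1 had -0.21. Whether the difference between the sexes changes with age was not tested. Fat markers of the dissected tissue also lay higher in females at 22 weeks (8 of 8 above 0, median log2 fold change 1.01), as did endothelial markers (8 of 8 above 0, median 0.40) and fibroblast markers (8 of 8 above 0, median 0.26), while smooth muscle markers lay lower (0 of 8 above 0, median -0.20). None of these lists had a gene called by edgeR, with 6, 5, 6 and 7 genes at an unadjusted p under 0.05 (Mylk in smooth muscle, at -0.24 with an adjusted p of 0.0451, fell short of the 1.2-fold limit), and macrophage markers had a median of 0.26 and pan-leukocyte markers one of 0.05. The part of these cells in the members' difference was not tested. Outside the members, the activator subunit Psme2 (0.40, adjusted p = 0.00363), the interferon response factor Irf1 (0.40, adjusted p = 0.0338) and H2-T23 (0.41, adjusted p = 0.0349) were higher in females.

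Within groups, Nlrc5 varied together with 5 of the other 9 members, with r of 0.50 to 0.63 beside a median of 0.50 over all 45 member pairs. Nlrc5 passed the filter through the AL-fed WT group that holds replicate 018, so these relations are a description. On log2 CPM centred within the 6 groups (28 samples, permutations within groups), Pearson's r was 0.63 for Psmb9 (adjusted p = 0.0216 by permutation), 0.58 for H2-K1 (adjusted p = 0.0216 by permutation), 0.53 for Psmb10 (adjusted p = 0.0226 by permutation), 0.50 for B2m (adjusted p = 0.0394 by permutation) and 0.53 for Psmb8 (adjusted p = 0.0460 by permutation). Spearman's rho was 0.64, 0.57, 0.49, 0.56 and 0.40 in the same order, with adjusted permutation p = 0.0216, 0.0241, 0.0391, 0.0241 and 0.147. The other 4 members had r of 0.18 to 0.38, with H2-D1 the lowest, and none passed. Without the 2 samples farthest from the median, replicates 018 and 022, r was 0.55 for Psmb9 (permutation p = 0.0133) and 0.53 for H2-K1 (permutation p = 0.0152), but 0.41 for B2m (permutation p = 0.0756), 0.35 for Psmb10 (permutation p = 0.107) and 0.28 for Psmb8 (permutation p = 0.247), and 0 of 9 relations passed after adjustment, so they rested in part on these samples.

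Within the 17 males alone 0 of 9 relations passed. Among males r was 0.53 for H2-K1, 0.51 for Psmb10, 0.19 for Psmb9 and -0.26 for B2m. Among 10 females of groups with more than 1 it was 0.70 for B2m, 0.56 for Psmb9 and 0.07 for H2-K1. These females form 5 groups of 2, for which permutation within groups cannot give a p below 0.0625, so no relation could pass among them. Over all 45 pairs of members, r within groups ran from -0.23 to 0.76 with a median of 0.50, and 43 pairs were above 0; the samples share depth and tissue composition, and no test was made.

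**Figure D5:**
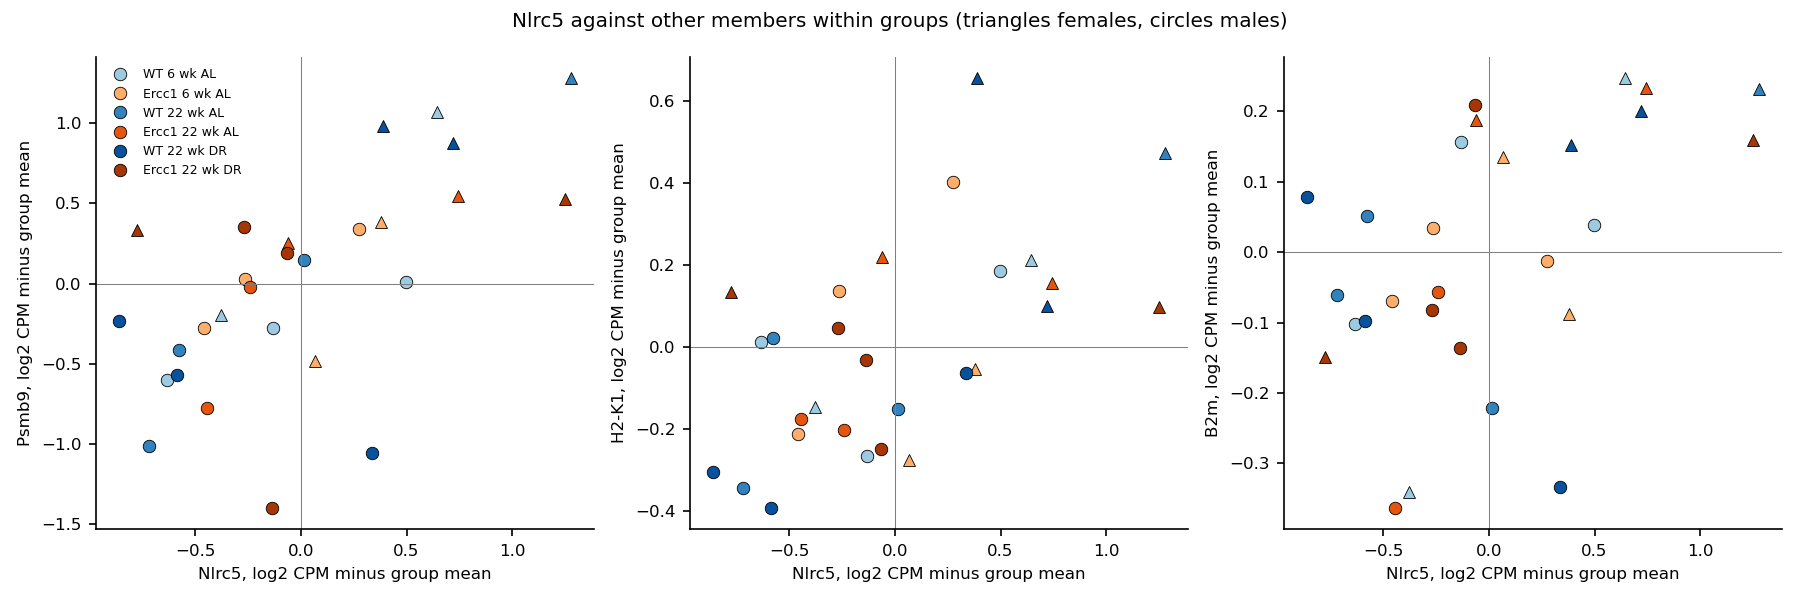
Log2 CPM of Psmb9, H2-K1 and B2m against that of Nlrc5, each minus its group mean, in 28 samples with females as triangles and males as circles. Points rise to the right (r of 0.63, 0.58 and 0.50), with most females at the right and the samples with the highest Nlrc5, WT replicate 018 and Ercc1Δ/− replicate 022, at the far right.

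Among 18 tested regulators of class I transcription, 4 were higher in AL-fed Ercc1Δ/− mice of 22 weeks. Irf7, which drives the interferon response, had 148 ± 23.4 normalised counts (SD, n = 4) against 24.6 ± 12.2 (SD, n = 4) in WT mice (log2 fold change 2.61, adjusted p = 4.44e-05). Irf9 (0.89, adjusted p = 9.27e-05) and Stat2 (0.50, adjusted p = 0.0368), partners in the factor that binds the ISRE, and Irf8 (1.17, adjusted p = 0.0176) were the others. Rfx5, the DNA-binding partner of NLRC5, was lower (-0.74, adjusted p = 0.0141).

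At 6 weeks 3 regulators were higher in Ercc1Δ/− mice, Irf7 (1.60, adjusted p = 0.0275), Irf9 (0.63, adjusted p = 0.00866) and Irf1 (0.54, adjusted p = 0.0367). There edgeR called 0 of the 10 members, although 9 had a higher mean in Ercc1Δ/− mice, so no order in time is shown. DR lowered Irf8 in Ercc1Δ/− mice (-2.15, adjusted p = 0.00779), and Rfx5 in WT mice (-0.85, adjusted p = 0.0149). Ciita, the class II transactivator, was too low for testing but stood at 33.2 normalised counts in WT replicate 018 and at 0 to 14.4 in the others.

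Ifng, the gene of interferon gamma, had 0 counts in all 28 samples, and a count of 0 allows up to 3 counts in a library of the same depth (counting error only). Of 14 genes of interferon ligands, receptors and signalling 9 were tested, and at 22 weeks on AL 3 were higher in Ercc1Δ/− mice, namely the receptor chains Ifngr1 (0.40, adjusted p = 0.0105) and Ifnar2 (0.50, adjusted p = 0.0342) and the inhibitor Socs3 (0.75, adjusted p = 0.0497). On DR, Ifnar2 (-0.60, adjusted p = 0.0442) and Ifngr2 (-0.52, adjusted p = 0.0406) were lower in Ercc1Δ/− mice. Of 9 receptors that read class I molecules only Pirb, an inhibitory receptor of myeloid cells, was abundant enough for testing. Its log2 fold change between genotypes was 1.86 at 22 weeks on AL (adjusted p = 8.62e-05) and 1.22 at 6 weeks (adjusted p = 0.0339).

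Leukocyte markers moved with genotype beside the members. At 22 weeks on AL the summed level of 6 pan-leukocyte genes was 349 to 711 normalised counts in Ercc1Δ/− mice and 133 to 195 in WT mice, with 5 of 5 tested genes higher. The sum of 14 macrophage markers was 2813 to 4916 against 1657 to 2235, with 8 of 12 tested genes higher and 1 lower, and 7 of 8 smooth muscle markers were lower. On DR in Ercc1Δ/− mice 5 macrophage markers fell, and the sum was 2284 to 5546. In bulk tissue fewer cells of a type and less RNA per cell cannot be told apart, and the part of these cells in the members' differences was not tested.

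T and natural killer cell markers were near the floor, with 0 of 16 genes tested and a sum of 12.4 to 38.9 normalised counts in AL-fed Ercc1Δ/− mice of 22 weeks against 5.32 to 14.7 in WT mice. The sums of WT replicate 018 (14.7) and of Ercc1Δ/− replicate 022 (45.0) were the highest of their groups, whose other samples had 5.32 to 10.3 and 2.40 to 7.62. Their sums of pan-leukocyte markers (145 and 293) and macrophage markers (1713 and 2546) lay within the range of their groups. The highest sum of T and natural killer cell markers over all 28 samples was 80.8, in the WT group of 6 weeks, where Nlrc5 reached 16.1 at most. The part of T cells in the high Nlrc5 of replicates 018 and 022 was not tested. WT replicate 011 of 6 weeks, the highest in Psmb9 of its group, had 0 counts on all 16 genes.

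Over all 28 samples the tested genes whose log2 CPM was most like the mean standardised profile of the 10 members were Iigp1 (Pearson's r 0.89), Ly6e (0.89), H2-Q4 (0.89), H2-T23 (0.88) and H2-Eb1 (0.88). Iigp1 is a GTPase and Ly6e a membrane protein induced by interferon, and H2-Eb1 is a class II chain. This likeness includes the differences between groups and is given without a test.

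Counts of members whose groups did not overlap gave a view without a model. Between genotypes at 22 weeks on AL 2 members did not overlap, beside 18.6% of all tested genes, and 8 did not without WT replicate 018. The share of all genes without that sample was not counted, and smaller groups separate more easily. The 8 can therefore not be read as particular to the members. At 6 weeks 1 member did not overlap (2.87% of all genes) and on DR 1 (8.27% of all genes). For age 2 members did not overlap in Ercc1Δ/− mice (6.78% of all genes) and 2 in WT mice (3.85% of all genes). For DR 4 members did not overlap in Ercc1Δ/− mice (5.02% of all genes), namely H2-K1, B2m, Tapbp and Psmb10, and 1 in WT mice (5.14% of all genes).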

How the data were processed

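The authors isolated total RNA of the aortic arch and sequenced mRNA (NEBNext Ultra II Directional libraries). Per the labels and the study's methods, reads were demultiplexed with bcl2fastq 2.20, aligned with STAR 2.7.10a to GRCm39, deduplicated by molecular identifier with UMI-tools 1.1.2 and counted per gene body with HTSeq 2.0.2, and the authors deposited raw counts (56748 genes and 5 lines of unassigned reads, which were left out). The unassigned lines of reads without a feature came to 7.27 to 10.1%, of ambiguous reads to 1.4 to 1.82% and of reads that align to several places to 3.66 to 7.06%. The authors' own model used DESeq2 1.34.0 with group and sex.

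From these counts, 12353 genes that exceeded 10 counts in at least 11 samples were tested with edgeR 4.0.16 (R 4.3.3; TMM factors 0.935 to 1.07, robust quasi-likelihood F test, group and sex as terms). AL-fed samples of both ages were fitted together, and all 22-week samples together. P-values were adjusted by Benjamini-Hochberg over all tested genes, and a call needed adjusted p of at most 0.05 and a 1.2-fold change (log2 0.263), the latter not for interactions. DESeq2 1.42.0, other scalings and filters, other terms and left-out samples were alternatives. The code was checked on simulated counts. Each library is 1 mouse; precision is limited by the depth of 921167 to 9616382 counts per sample. Ratios used exact permutation tests and Nlrc5 relations 100000 permutations within groups (scipy 1.17.1).

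The members and lists were chosen with earlier results of these data known. The genes named are the 10 members, Psmb5 to Psmb7, up to 6 called genes of each list, 10 regulators and related genes kept whatever their result (1 of them is not reported here), the 5 genes most like the members, and Ercc1. The sex term, the earlier dispersion method of edgeR, the joint removal of replicates 018 and 022 and the relations within each sex were added after values had been seen. Promoter sequences come from a RefSeq table of GRCm38.p6.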

Additional observations from a re-analysis of the deposited data

Results flagged for a closer look

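In the 60 sets of a member and a group, the highest or lowest sample stood apart from the rest of its group in 3 by Dixon's criterion, and chance alone flags about 1 in 20 sets. Psmb9 in WT mice of 6 weeks was highest in replicate 011 with 32.1 normalised counts, from 8 raw counts, against 8.73 to 14.4 in the others. Psmb9 in Ercc1Δ/− mice on DR was lowest in replicate 029 with 5.72, from 3 raw counts, against 21.2 to 27.3. Nlrc5 in Ercc1Δ/− mice on DR was highest in replicate 022 with 38.2, from 28 raw counts, against 7.87 to 14.1.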

How the results depend on the processing

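Of 2207 values of members and ratios under alternatives, 2028 kept their sign and their side of the threshold, 104 kept the sign but lost a call, 60 gained one and 15 changed sign. No paired analysis was possible because each mouse gave 1 sample and no number is shared between groups. In the order genotype at 22 weeks on AL, genotype at 6 weeks, age in Ercc1Δ/−, age in WT, genotype by age, DR in Ercc1Δ/−, DR in WT, genotype on DR, genotype by diet, sex at 22 weeks and sex on AL, leaving out 1 sample gave 927 to 1690, 95 to 226, 320 to 753, 8 to 54, 49 to 138, 96 to 269, 39 to 205, 1182 to 1638, 2 to 11, 55 to 382 and 12 to 20 genes, against 1488, 213, 574, 27, 97, 220, 154, 1606, 11, 115 and 18. For members it gave 1 to 6, 0 to 1, 2 to 5, 0 to 1, 0 to 0, 1 to 4, 0 to 6, 3 to 6, 0 to 1, 2 to 4 and 0 to 0. Members without overlap were 2 to 8, 1 to 4, 2 to 5, 2 to 3, 4 to 6, 1 to 3 and 1 to 4 for the comparisons of genotype on AL at 22 and 6 weeks, age in Ercc1Δ/− and WT, DR in Ercc1Δ/− and WT, and genotype on DR, and 0 to 0 ratios passed. The share of all genes without overlap was not counted for these smaller sets.

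Thinned to 921167 counts, the same 11 comparisons gave 638, 107, 297, 19, 57, 117, 52, 883, 6, 75 and 11 genes, and members numbered 1 for age in WT, 0 for DR in WT, 3 for genotype on DR and 1 for sex at 22 weeks. Psmb9 and Nlrc5 then failed the filter and have no value, so depth limits both. DESeq2 gave 378 genes at 6 weeks, 106 for age in WT, 197 for genotype by age, 348 for DR in Ercc1Δ/−, 43 for genotype by diet and 321 for sex at 22 weeks, and 1, 1, 4 and 1 members for genotype at 6 weeks, age in WT, DR in Ercc1Δ/− and genotype by diet. With replicate 003 added, genes were 104 for DR in Ercc1Δ/−, 100 for DR in WT, 3 for genotype by diet and 174 for sex at 22 weeks, and members 1, 1 and 3 for genotype on AL at 22 weeks, DR in Ercc1Δ/− and genotype on DR, with 1 member not overlapping for genotype on AL. Without the filter, genes were 67 for age in WT, 269 for DR in WT, 31 for genotype by diet and 226 for sex at 22 weeks, and members 1 for genotype on AL, age in WT and genotype by diet. With all samples in one fit, genes were 42, 66, 5 and 23 for age in WT, DR in WT, genotype by diet and sex at 22 weeks, and members 1 at 6 weeks, 1 for DR in Ercc1Δ/−, 3 for DR in WT and 1 for sex in both fits. Without the sex term, genes were 46 for DR in WT and 2 for genotype by diet, and members 1 for DR in Ercc1Δ/−, 0 for DR in WT and 1 for genotype on DR. DESeq2's scaling (RLE) gave 1 member for genotype by diet, and 3 and 2 members without overlap for DR in WT and genotype on DR. Without replicates 018 and 022, genes were 938 for genotype on AL, 54 for genotype by age, 361 and 52 for DR in Ercc1Δ/− and WT, 3 for genotype by diet and 546 for sex at 22 weeks, and members 6 for genotype on AL, 1 at 6 weeks, 5 for age in Ercc1Δ/−, 0 for DR in WT, 3 for genotype on DR and 2 for sex at 22 weeks. The earlier dispersion method of edgeR moved no count by over 1.5 times. Of the 5 Nlrc5 relations 0 passed without the 2 farthest samples and 0 in males alone. In females alone 0 passed as well, but there the smallest p that permutation allows is 0.0625 and none could.

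Some signs changed. For genotype on AL at 22 weeks, leaving out 1 sample gave -1.102 to 0.197 for Nlrc5, -0.455 to 0.604 for Psmb9 (both highest without replicate 018) and -0.0146 (without Ercc1Δ/− replicate 013) to 0.344 for Tap2. Nlrc5 was at 0.179 and Psmb9 at 0.59 without replicates 018 and 022, and Psmb9 at 0.0199 without the sex term. At 6 weeks Nlrc5 gave -1.007 to 0.265, the latter without WT replicate 001. For age Tapbp gave -0.0436 to 0.0995 in Ercc1Δ/− mice, below 0 without replicates 005 and 023, and -0.0681 to 0.107 in WT mice, below 0 without replicates 018 and 019 and, at -0.0609, without 018 and 022. For DR in Ercc1Δ/− mice Psmb9 gave -0.377 to 0.0412, above 0 without replicate 022. For sex at 22 weeks Tap2 gave -0.0605 to 0.144, below 0 without replicate 018 and, at -0.113, without 018 and 022. The cause was not tested.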
